A study of Mus musculus with 16 samples.

Results

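The genes described here build and read the contact between cells and the extracellular matrix. They are 37 genes out of 55385 in the tables, chosen by name and with no threshold on a measured value, but with earlier results of these data known. The list held 12 integrin α chains, 7 integrin β chains, 10 laminin chains, 4 thrombospondins, the adhesion ligands fibronectin (Fn1) and vitronectin (Vtn), the adhesion scaffold Nedd9 and the heparan sulfate-cleaving enzyme heparanase (Hpse). Of the 37 members, 35 passed the filter on low counts and were tested among 17222 genes. Itgb6 with 0 to 4 counts per library and Thbs4 with 1 to 14 counts were too low to test.

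Primary hippocampal cultures from newborn C57Bl/6N mice, dissociated at P0 and plated on poly-D-lysine and laminin in medium with rat serum, were infected on day in vitro (DIV) 4 with recombinant adeno-associated virus. The virus carried Control-shRNA (labelled shControl) or Dnmt3a1-shRNA (labelled shDnmt3a1) behind a U6 promoter, and GFP behind a chicken β-actin promoter, so that infected cells of any type could express the hairpin. The study chose its viral serotype for a tropism for neurons, and which cells were infected in these cultures was not tested here. Each culture was left in baseline (labelled 0h) or treated for 4 h with 50 µM bicuculline, a blocker of GABA-A receptors that induces bursts of action potentials, at DIV 9 to 11. The 4 groups of 4 libraries were Control-shRNA baseline, Control-shRNA bicuculline, Dnmt3a1-shRNA baseline and Dnmt3a1-shRNA bicuculline, and the study describes the 4 of a group as independent neuronal preparations. Every group was infected with a virus that makes a hairpin and GFP, and the labels name 1 knockdown hairpin, so an effect of the hairpin on other transcripts cannot be told apart from the loss of Dnmt3a1.

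Integrins are receptors made of 1 α and 1 β chain, and the pair decides which matrix protein is bound: β1 pairs with many α chains to bind laminin, collagen and fibronectin, while αv pairs with β3, β5 and β8 to bind ligands such as vitronectin and fibronectin. Laminins are trimers of an α, a β and a γ chain that form basement membranes. Thrombospondins are secreted matrix proteins, known in the hippocampus as astrocyte products that promote the formation of synapses, and β3 integrin is known in hippocampal neurons for its part in homeostatic scaling of synapses. Dnmt3a1 is the long isoform of Dnmt3a, a de novo DNA methyltransferase that methylates cytosines, mostly at CpG.

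Depth was even, from 28912697 to 29586355 estimated counts per library. The targeted gene checked the labels, as Dnmt3a had a mean of 312 ± 13.8 CPM (CPM being counts scaled to library depth by TMM, SD, n = 4) in Control-shRNA baseline and 44.5 ± 3.66 CPM in Dnmt3a1-shRNA baseline, and the groups did not overlap in either condition. The values sum the transcripts of a gene, so the isoforms Dnmt3a1 and Dnmt3a2 were not separated. Fos, Arc and Npas4, activity-regulated genes, were each higher in every bicuculline library than in every baseline library. The neuronal marker list summed to 7103 CPM or more in every library and the astrocyte list to 701 CPM or more, whereas the microglial list summed to 2.79 to 5.75 CPM and the endothelial list to 3.21 to 4.67 CPM. The endothelial marker Cldn5 was at 0 in all libraries of 2 groups. In such bulk RNA, fewer cells of a type and less RNA per cell cannot be told apart.

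The promoters of 4 called members are shown first, since the study manipulates an enzyme that methylates DNA and a stimulus that induces transcription. RefSeq entries on build GRCm38.p6, of 250 bases before and 50 after a gene start, were found for 25 of the 37 members (28 windows), and among the members without one were Itgb3, Lamc1, Lama3 and Thbs1. Below, capitals mark matches on either strand to the AP-1 motif TGANTCA, the half-site of the cAMP response element TGACG, the GC box GGGCGG or the TATA box TATAAA. Nedd9 is shown as the member with the largest rise with bicuculline (chr13:41358952-41359251, minus strand), and Itga4 as the member with the largest fall with bicuculline (chr2:79255176-79255475, plus strand). Itga9 is shown because it held both an AP-1 match and a half-site (chr9:118711442-118711741, plus strand), and Itgb8 as a β chain that rose with bicuculline in both viruses (chr12:119238227-119238526, minus strand).
Nedd9: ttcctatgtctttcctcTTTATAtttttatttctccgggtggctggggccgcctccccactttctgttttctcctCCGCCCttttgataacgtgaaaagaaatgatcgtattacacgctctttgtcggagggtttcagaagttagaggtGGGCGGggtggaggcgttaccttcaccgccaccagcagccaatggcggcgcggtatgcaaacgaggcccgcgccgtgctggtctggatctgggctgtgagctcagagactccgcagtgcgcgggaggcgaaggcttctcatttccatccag
Itga4: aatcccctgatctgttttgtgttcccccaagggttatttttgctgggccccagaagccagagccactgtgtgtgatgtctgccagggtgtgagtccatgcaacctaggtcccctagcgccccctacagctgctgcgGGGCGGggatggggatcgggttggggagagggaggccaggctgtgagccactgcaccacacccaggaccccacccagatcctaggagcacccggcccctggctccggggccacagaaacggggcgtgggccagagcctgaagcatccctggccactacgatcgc
Itga9: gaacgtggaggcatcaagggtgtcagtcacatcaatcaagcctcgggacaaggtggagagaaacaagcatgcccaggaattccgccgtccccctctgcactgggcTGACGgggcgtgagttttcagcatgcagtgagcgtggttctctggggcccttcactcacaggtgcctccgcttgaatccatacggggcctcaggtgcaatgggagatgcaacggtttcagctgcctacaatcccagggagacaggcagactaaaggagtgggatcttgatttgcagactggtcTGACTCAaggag
Itgb8: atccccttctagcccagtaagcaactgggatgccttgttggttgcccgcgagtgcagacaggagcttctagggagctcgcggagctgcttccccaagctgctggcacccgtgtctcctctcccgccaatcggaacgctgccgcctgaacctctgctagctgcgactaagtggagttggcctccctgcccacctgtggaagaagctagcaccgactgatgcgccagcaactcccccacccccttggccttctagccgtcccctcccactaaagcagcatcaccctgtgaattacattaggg
The full cAMP response element TGACGTCA, which contains the half-site, matched 0 of the 28 member windows and 1.79% of all 32851 promoters. The AP-1 motif matched 2 windows of members (7.14%), in Itga9 and in 1 of the 2 windows of Itga3, beside 7.81% of all promoters. The half-site was found in 17.9% of member windows and 20.8% of all promoters, the GC box in 53.6% and 35.7%, and the TATA box in 10.7% and 13.6%. CpG dinucleotides numbered 21 in the Nedd9 window, 10 in Itga4, 10 in Itga9 and 13 in Itgb8, and the median over all promoters was 7. The windows of Itga4 and Itgb8 lie 0 and 526 bases downstream of the 5′ end of the GENCODE gene, but those of Nedd9 and Itga9 lie 128361 and 105002 bases downstream of it, at the start of shorter transcripts. The windows of Lamb3, which held none of these motifs, and Hpse, which held 1 GC box, are not printed, though both changed more in Control-shRNA than Itga9 and Itgb8. Which start was used in these cultures was not tested, and a match of letters is a description of the window.

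In TPM, which scale the reads of a gene by its transcript length and the library depth, the best expressed member in Control-shRNA baseline was the shared β1 chain. Itgb1 had a mean of 36.4 ± 4.06 TPM (SD, n = 4), Itgb5 19.3 ± 4.41, Thbs3 18.1 ± 3.40 and Itga3, the α chain of a laminin receptor, 16.6 ± 1.38. They were followed by Lamb1, Itga6, Itgav, Fn1 and Lamc1, with means from 12.5 down to 9.02 TPM. The laminin chains at these levels, β1 and γ1, are those of the common trimers, and while Lamb1 overlapped Itga6 and Itgav in its libraries, Lamc1 overlapped Itgav but lay below Itga6. In all, 24 members had a mean of at least 1 TPM and 13 were lower, among them Itgb4 at 0.180 TPM, the partner of α6 in hemidesmosomes. Neighbours in this order were rarely separable, since the libraries of 32 of the 36 neighbouring pairs overlapped. The clear steps were from Itgb1 to Itgb5, from Itga3 to Lamb1, from Lamc1 to Nedd9 and from Hpse to Itga2. The high place of Thbs3 rests on the scaling by length. In CPM, which lack that scaling, its mean in Control-shRNA baseline was 10.4, below Itga3, Lamb1 and Lamc1 at 35.3, 32.6 and 26.4.

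**Figure D1:**
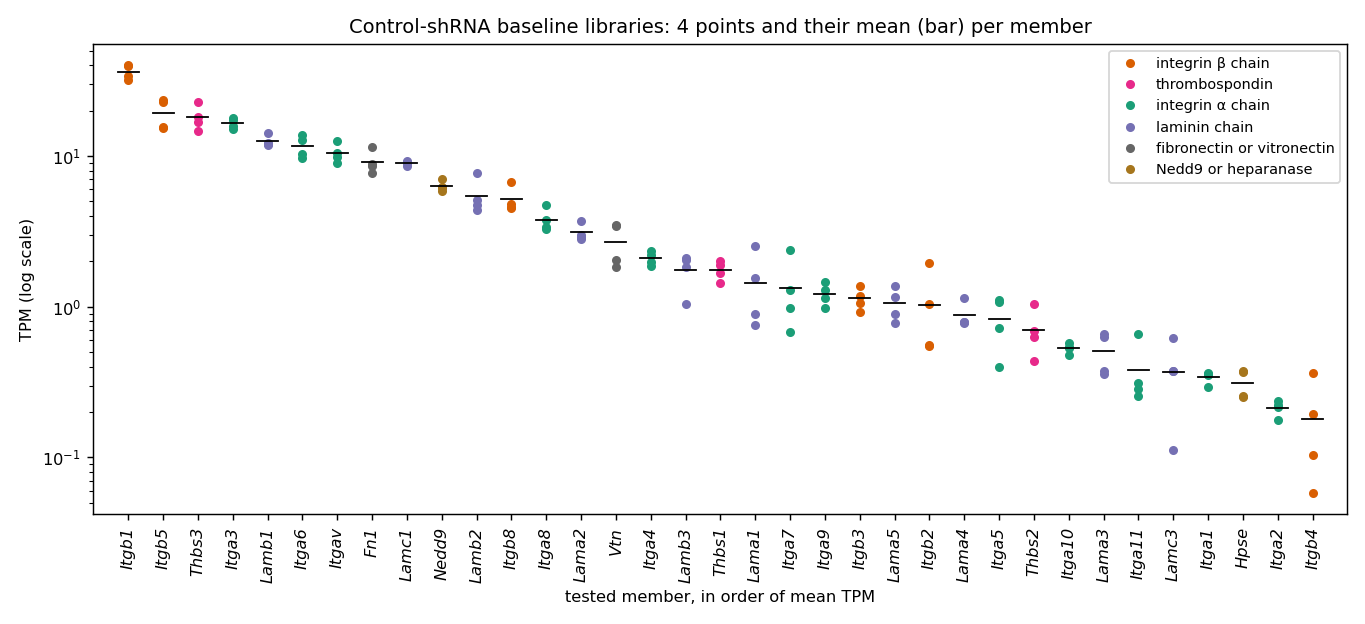
Level of the 35 tested members in the 4 Control-shRNA baseline libraries, as TPM on a log axis, with 1 point per library, a bar at the mean and colours for the role of the protein. Itgb1 stands above the rest at a mean of 36.4 TPM, and most neighbours in the order overlap.

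The first comparison asked which adhesion genes respond to synaptic activity in control-infected cultures. Bicuculline raised 9 of the 35 tested members (Nedd9, Lamb3, Lama3, Hpse, Thbs1, Itgb8, Itga9, Lamc1 and Itgav) and lowered 1, Itga4. A gene was called at a Benjamini-Hochberg adjusted p under 0.05 over all tested genes by edgeR's quasi-likelihood test and an absolute log2 fold change over 0.5. Among all 17222 genes, 10.8% were called higher and 11.1% lower in this comparison, so that the higher members (9 of 35) were above that background and the lower one (1 of 35) was below it. The median log2 fold change was 0.29 over the 35 members and 0.01 over all tested genes. Nedd9, Hpse and Thbs1 stand in a gene list that the study drew from these same libraries for an adhesion term, so their call is not independent evidence. The count of 9 includes them, so its place above the background is a description and not a test.

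In Dnmt3a1-shRNA cultures the response called 12 members, 10 higher and 2 lower, where 12.6% of all genes were called higher and 13.2% lower. Those higher were Nedd9, Lama3, Itga9, Hpse, Itgb8, Lamb3, Lamc1, Itga2, Itgav and Itgb1, and those lower were Itga4 and Itga3. The median was 0.40 over the members and -0.01 over all tested genes. Of the members, 9 were called in the same direction in both viruses, and the difference between the viruses was tested separately.

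**Figure D2:**
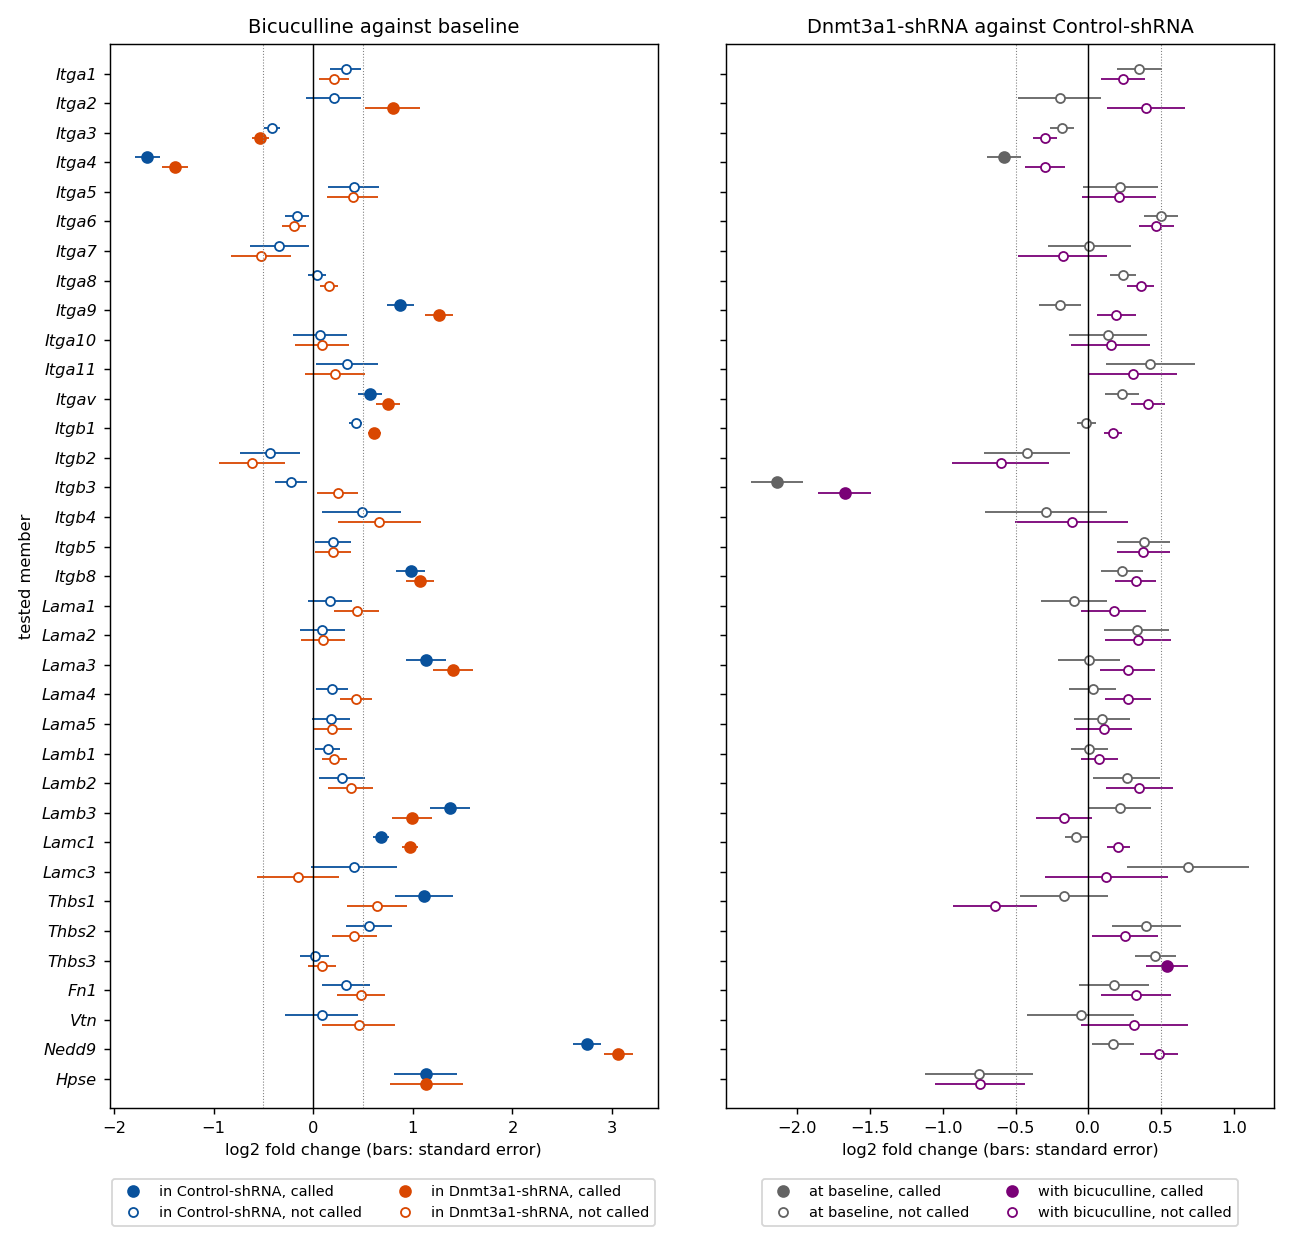
Log2 fold change of each tested member (x axis) with bicuculline on the left and with Dnmt3a1-shRNA on the right, with bars of 1 standard error and filled points for called members. Dotted lines mark the threshold of 0.5. Nedd9 (2.75 and 3.06) and Itga4 (-1.67 and -1.39) are among the members farthest from 0 on the left, and Itgb3 (-2.14 and -1.67) on the right.

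Nedd9, a docking protein of the p130Cas family that is phosphorylated downstream of integrins and focal adhesion kinase, had the largest change of all members (chr13:41309581-41487362 on GRCm38, minus strand). It measured 14.1, 12.5, 12.6 and 15.01 CPM in Control-shRNA baseline (replicates 1 to 4) and 109, 75.9, 79.1 and 99.0 CPM with bicuculline. In Dnmt3a1-shRNA it measured 16.8, 14.0, 14.5 and 15.7 CPM in baseline and 159.9, 120.2, 98.0 and 131 CPM with bicuculline. Every stimulated library was above every baseline library in both viruses. The log2 fold change was 2.75 ± 0.14 (SE), or 6.71-fold, in Control-shRNA (edgeR adjusted p = 1.09e-10) and 3.06 ± 0.14, or 8.36-fold, in Dnmt3a1-shRNA (edgeR adjusted p = 2.12e-11). Nedd9 shares 62 exon bases (0.972% of its exon bases) with the antisense gene Gm32401, which had a mean of 0.123 CPM.

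Among the integrin α chains, α4 fell, αv and α9 rose, and α3 fell slightly. Itga4, which pairs with β1 to bind fibronectin and the adhesion molecule Vcam1 (chr2:79255426-79333123), measured 8.85, 8.18, 9.10 and 10.47 CPM in Control-shRNA baseline and 2.35, 3.23, 3.02 and 2.91 CPM with bicuculline. The Dnmt3a1-shRNA libraries held 5.76, 6.34, 6.48 and 5.93 CPM in baseline and 2.73, 2.44, 2.39 and 1.81 CPM with bicuculline. The stimulated libraries held 31.4% of the baseline mean in Control-shRNA and 38.2% in Dnmt3a1-shRNA, with no overlap of the groups. Its log2 fold change was -1.67 ± 0.13 (edgeR adjusted p = 1.21e-08) in Control-shRNA and -1.39 ± 0.13 (edgeR adjusted p = 1.36e-07) in Dnmt3a1-shRNA. Itga4 shares 8.04% of its exon bases with Cerkl on the opposite strand, which had a mean of 0.342 CPM, and whether the counts used strand is not given in the sources used here.

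Itga9, whose product pairs with β1 to bind tenascin-C and Vcam1, measured 1.78, 2.62, 2.80 and 2.66 CPM in Control-shRNA baseline and 4.13, 4.37, 4.91 and 4.70 CPM with bicuculline. In Dnmt3a1-shRNA the values were 1.72, 2.39, 2.19 and 2.32 CPM in baseline and 5.42, 4.92, 5.35 and 5.02 CPM with bicuculline. The groups did not overlap, and the log2 fold change was 0.87 ± 0.14 (edgeR adjusted p = 6.16e-05) and 1.26 ± 0.14 (edgeR adjusted p = 9.48e-07). On TPM with a pseudocount of 1 the value in Dnmt3a1-shRNA was 0.49, just below the fold threshold. Its ligand tenascin-C (Tnc) rose in the same comparisons, from a mean of 6.79 ± 0.874 to 51.2 ± 18.6 CPM in Control-shRNA (log2 fold change 2.91, edgeR adjusted p = 3.57e-07) and by a log2 fold change of 3.59 in Dnmt3a1-shRNA (edgeR adjusted p = 2.64e-08).

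Itgav, the α chain shared by the vitronectin-binding integrins, measured 23.3, 22.5, 29.3 and 24.4 CPM in Control-shRNA baseline and 35.6, 39.2, 40.3 and 32.7 CPM with bicuculline. Under Dnmt3a1-shRNA the values were 26.2, 25.2, 36.5 and 28.8 CPM in baseline and 51.4, 44.4, 55.9 and 44.6 CPM with bicuculline. The stimulated libraries were the higher ones in both viruses without overlap. This gave a log2 fold change of 0.57 ± 0.12 (edgeR adjusted p = 0.000766) and 0.75 ± 0.12 (edgeR adjusted p = 4.23e-05). The Control-shRNA call is lost with library sizes only, where the log2 fold change was 0.41 (edgeR adjusted p = 0.0194), and on TPM (0.35, limma adjusted p = 0.126, with a pseudocount of 1). Itgav shares 5.90% of its exon bases with the opposite-strand gene Gm13684, at a mean of 0.115 CPM.

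Itga3, whose product pairs with β1 as a laminin receptor, measured 36.96, 37.9, 32.7 and 33.6 CPM in Control-shRNA baseline and 23.3, 29.6, 26.4 and 26.7 CPM with bicuculline. Dnmt3a1-shRNA cultures had 31.4, 32.8, 28.8 and 31.7 CPM in baseline and 19.2, 22.6, 23.6 and 20.8 CPM with bicuculline. Stimulated libraries were lower in both viruses without overlap. The log2 fold change of -0.53 ± 0.08 in Dnmt3a1-shRNA passed both thresholds (edgeR adjusted p = 4.19e-05), and the value of -0.41 ± 0.08 in Control-shRNA passed the adjusted p alone (0.000545, edgeR). The Dnmt3a1-shRNA call is lost without Dnmt3a1-shRNA bicuculline replicate 1, at a log2 fold change of -0.49. In Control-shRNA Itga3 was called with library sizes only (-0.57) and on TPM (-0.60 with a pseudocount of 1 and -0.64 with 0.1).

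Itga2, the α chain of a collagen receptor, was counted at 13 to 36 per library. It measured 0.457, 0.425, 0.445 and 0.606 CPM in Dnmt3a1-shRNA baseline and 0.633, 0.852, 1.28 and 0.591 CPM with bicuculline. In Control-shRNA it measured 0.428, 0.587, 0.456 and 0.746 CPM in baseline and 0.670, 0.710, 0.721 and 0.456 CPM with bicuculline. The groups overlapped in both viruses. The call in Dnmt3a1-shRNA (log2 fold change 0.80 ± 0.28, edgeR adjusted p = 0.0254) rested on few counts, and was lost without Dnmt3a1-shRNA baseline replicate 1, 2 or 3 (log2 fold changes 0.77, 0.74 and 0.76) or Dnmt3a1-shRNA bicuculline replicate 3 (0.51). On TPM with a pseudocount of 0.1 the log2 fold change was 0.12.

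Other α chains were not called with bicuculline in either virus. Their log2 fold changes in Control-shRNA ran from -0.34 for Itga7 to 0.40 for Itga5, the α chain of the classical fibronectin receptor, whose group means were 1.65 ± 0.618 and 2.19 ± 0.342 CPM. Itga6, the α chain of a laminin receptor, had group means of 17.2 ± 1.99 and 15.3 ± 1.497 CPM. Itga8, Itga10, Itga1 and Itga11 had log2 fold changes of 0.04, 0.07, 0.33 and 0.34 there.

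**Figure D3:**
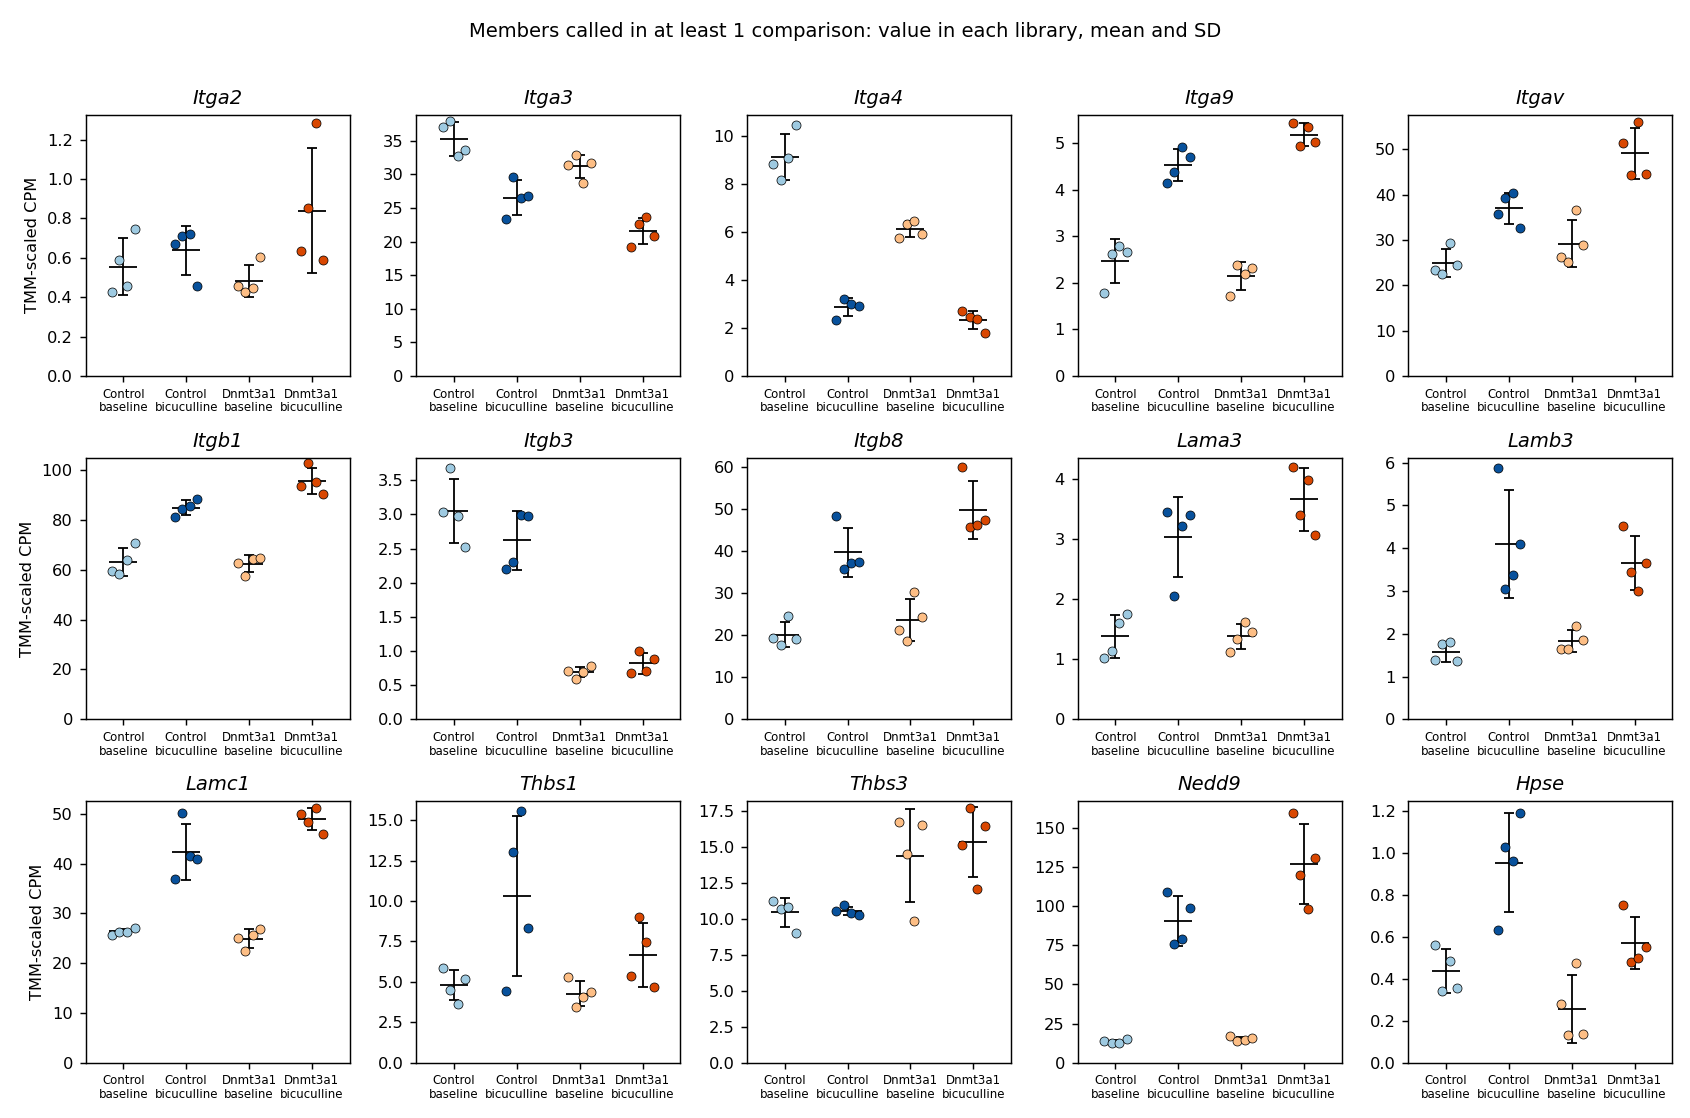
TMM-scaled CPM in each of the 16 libraries for the 15 members called in at least 1 comparison, with 1 point per library, a bar at the group mean and whiskers of 1 SD (n = 4). Nedd9, Itgb8, Lama3, Lamb3 and Lamc1 separate by stimulus, Itgb3 separates by virus, and 1 stimulated Control-shRNA library of Thbs1 lies among the baseline libraries.

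Among the β chains, β8 rose in both viruses. Itgb8, which pairs with αv to activate latent transforming growth factor β (chr12:119158022-119238802), measured 19.3, 17.7, 24.7 and 19.0 CPM in Control-shRNA baseline and 48.3, 35.8, 37.3 and 37.6 CPM with bicuculline. In Dnmt3a1-shRNA it measured 21.2, 18.7, 30.4 and 24.3 CPM in baseline and 60.1, 45.8, 46.2 and 47.4 CPM with bicuculline. The groups did not overlap, and the log2 fold change was 0.98 ± 0.14 (edgeR adjusted p = 3.12e-05) and 1.07 ± 0.14 (edgeR adjusted p = 8.19e-06). Tgfb2, a transforming growth factor β named here after its values were seen, rose in both viruses as well, with log2 fold changes of 1.74 and 1.62 (edgeR adjusted p = 1.55e-09 and 2.51e-09). Tgfb1 and Tgfb3, likewise named afterwards, had means of 0.992 and 5.61 CPM in Control-shRNA baseline and 1.18 and 6.10 CPM with bicuculline. In Dnmt3a1-shRNA the means were 0.862 and 4.78 CPM in baseline and 1.36 and 5.66 CPM with bicuculline. A link of these genes to Itgb8 was not tested.

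Itgb1, the β chain shared by most of the α chains, measured 59.3, 58.5, 64.0 and 70.5 CPM in Control-shRNA baseline and 81.1, 84.3, 85.7 and 88.5 CPM with bicuculline. The Dnmt3a1-shRNA libraries held 62.9, 57.7, 64.4 and 64.8 CPM in baseline and 93.7, 103, 95.3 and 90.5 CPM with bicuculline. No stimulated library reached down to a baseline library. The log2 fold change of 0.61 ± 0.07 in Dnmt3a1-shRNA was called (edgeR adjusted p = 5.59e-07) and that of 0.43 ± 0.06 in Control-shRNA passed the adjusted p alone (3.90e-05, edgeR). With library sizes only, the value in Dnmt3a1-shRNA was 0.46, below the fold threshold, as it was on TPM (0.41 with a pseudocount of 1 and 0.42 with 0.1). Itgb5, Itgb3, Itgb2 and Itgb4 were not called with bicuculline, at log2 fold changes of 0.20, -0.22, -0.43 and 0.49 in Control-shRNA. Of these, Itgb2, the β chain of leukocytes, and Itgb4 had at most 37 and 21 counts in a library.

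Among the laminins, 3 of 10 chains rose in each virus, and they were the same chains, α3, β3 and γ1, where 10.8% of all genes were called higher in Control-shRNA and 12.6% in Dnmt3a1-shRNA. All 10 had log2 fold changes above 0 in Control-shRNA with a median of 0.24, and 9 did in Dnmt3a1-shRNA with a median of 0.40. This direction depended on the scaling. With library sizes only, Lama2 and Lamb1 were below 0 in Control-shRNA (-0.07 and -0.01), and Lama2 in Dnmt3a1-shRNA (-0.04). In TPM the Control-shRNA means of Lamb1, Lama2, Lama4 and Lamc3 were lower with bicuculline than in baseline, and those of the other chains were higher. The chain γ1 is part of most laminin trimers, whereas α3 and β3 are known from laminin-332 of epithelia together with γ2. Lamc1 measured 25.7, 26.3, 26.2 and 27.1 CPM in Control-shRNA baseline and 36.96, 50.1, 41.5 and 40.8 CPM with bicuculline. Under Dnmt3a1-shRNA the values were 24.99, 22.3, 25.6 and 26.8 CPM in baseline and 50.003, 48.4, 51.1 and 46.0 CPM with bicuculline. The groups lay far apart relative to their spread, with log2 fold changes of 0.68 ± 0.08 (edgeR adjusted p = 2.55e-06) and 0.97 ± 0.08 (edgeR adjusted p = 3.03e-08). On TPM the Control-shRNA value was 0.33 with a pseudocount of 1, below the fold threshold.

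Lama3 measured 1.02, 1.14, 1.61 and 1.75 CPM in Control-shRNA baseline and 3.46, 2.06, 3.23 and 3.40 CPM with bicuculline. Dnmt3a1-shRNA cultures had 1.12, 1.34, 1.62 and 1.45 CPM in baseline and 4.20, 3.41, 3.99 and 3.06 CPM with bicuculline. The groups did not overlap in either virus. The log2 fold change was 1.13 ± 0.20 (edgeR adjusted p = 0.000201) and 1.40 ± 0.20 (edgeR adjusted p = 1.76e-05). On TPM with a pseudocount of 1 the Control-shRNA value was 0.36, below the fold threshold.

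Lamb3 measured 1.38, 1.76, 1.79 and 1.36 CPM in Control-shRNA baseline and 5.88, 3.05, 3.36 and 4.10 CPM with bicuculline. In Dnmt3a1-shRNA it measured 1.65, 1.63, 2.19 and 1.85 CPM in baseline and 4.51, 3.44, 2.99 and 3.66 CPM with bicuculline. Stimulated libraries were the higher ones throughout, and Control-shRNA bicuculline replicate 1 was the highest of all 16. Its log2 fold change was 1.37 ± 0.20 (edgeR adjusted p = 2.73e-05) and 0.99 ± 0.20 (edgeR adjusted p = 0.000544). Measured per length, the group means in Control-shRNA were 1.77 ± 0.494 and 3.08 ± 0.889 TPM, and the log2 fold change on TPM with a pseudocount of 0.1 was 0.76 (limma adjusted p = 0.0518).

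The remaining 7 laminin chains were not called. Lamb1 and Lamb2, the common β chains, had log2 fold changes of 0.14 and 0.29 in Control-shRNA and 0.21 and 0.38 in Dnmt3a1-shRNA. Lama4, a chain of vessel laminins, passed the adjusted p alone in Dnmt3a1-shRNA at a log2 fold change of 0.43 ± 0.16 (edgeR adjusted p = 0.0352), and was called without Dnmt3a1-shRNA baseline replicate 3, at 0.54. Lama1, Lama2 and Lama5 had log2 fold changes from 0.09 to 0.18 in Control-shRNA and from 0.10 to 0.44 in Dnmt3a1-shRNA, and Lamc3 had 0.41 and -0.15 with 10 to 65 counts per library.

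Thbs1, a thrombospondin that binds Cd36 and activates latent transforming growth factor β, varied widely between the stimulated libraries (chr2:118111876-118127133, GRCm38). It measured 5.86, 4.48, 3.65 and 5.19 CPM in Control-shRNA baseline and 4.43, 13.03, 15.6 and 8.31 CPM with bicuculline. The Dnmt3a1-shRNA libraries held 5.27, 3.43, 4.03 and 4.34 CPM in baseline and 5.38, 9.03, 7.45 and 4.69 CPM with bicuculline. In Control-shRNA, 3 of 4 stimulated libraries exceeded every baseline library, and replicate 1 did not, so the groups overlapped. The log2 fold change in Control-shRNA was 1.11 ± 0.29 (edgeR adjusted p = 0.00541), and it was called in each of the 16 fits that left out 1 library, from 0.84 to 1.36, but not on TPM (0.57 with a pseudocount of 1, limma adjusted p = 0.0615). In Dnmt3a1-shRNA it was 0.64 ± 0.30 and not called (edgeR adjusted p = 0.0962), and it was called without Control-shRNA bicuculline replicate 1, at 0.63, and in a fit of those 2 groups alone, at 0.65.

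Thbs2, a close relative of Thbs1, had group means of 1.90 ± 0.579 and 2.80 ± 0.855 CPM in Control-shRNA, with a log2 fold change of 0.56 ± 0.24 that was not called (edgeR adjusted p = 0.0665). With the replicate number as a block it was called at 0.56 (edgeR adjusted p = 0.00599), as it was without Control-shRNA baseline replicate 3, at 0.77, or Control-shRNA bicuculline replicate 1, at 0.68. Thbs3 was near level, at log2 fold changes of 0.01 and 0.09 with bicuculline. The ligand Fn1 had group means of 25.6 ± 4.37 and 32.1 ± 12.3 CPM in Control-shRNA, with a log2 fold change of 0.33 ± 0.24 (edgeR adjusted p = 0.309). Vtn had 1.998 ± 0.793 and 2.12 ± 0.748 CPM.

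Hpse, the enzyme that cleaves heparan sulfate chains in the matrix, was counted at 4 to 34 per library. It measured 0.560, 0.340, 0.487 and 0.357 CPM in Control-shRNA baseline and 0.633, 1.03, 0.961 and 1.19 CPM with bicuculline. Under Dnmt3a1-shRNA the values were 0.281, 0.131, 0.476 and 0.135 CPM in baseline and 0.752, 0.481, 0.499 and 0.554 CPM with bicuculline. The groups did not overlap, though the closest libraries of each nearly met. This gave a log2 fold change of 1.13 ± 0.31 (edgeR adjusted p = 0.00775) and 1.13 ± 0.36 (edgeR adjusted p = 0.0164), and the latter call was lost without Dnmt3a1-shRNA baseline replicate 2 or 4 (0.92 and 0.93) or Dnmt3a1-shRNA bicuculline replicate 1 (0.97). On TPM with a pseudocount of 1, which shrinks the change of so low a gene, neither virus passed, at 0.28 and 0.18 (limma adjusted p = 0.0165 and 0.103).

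**Figure D4:**
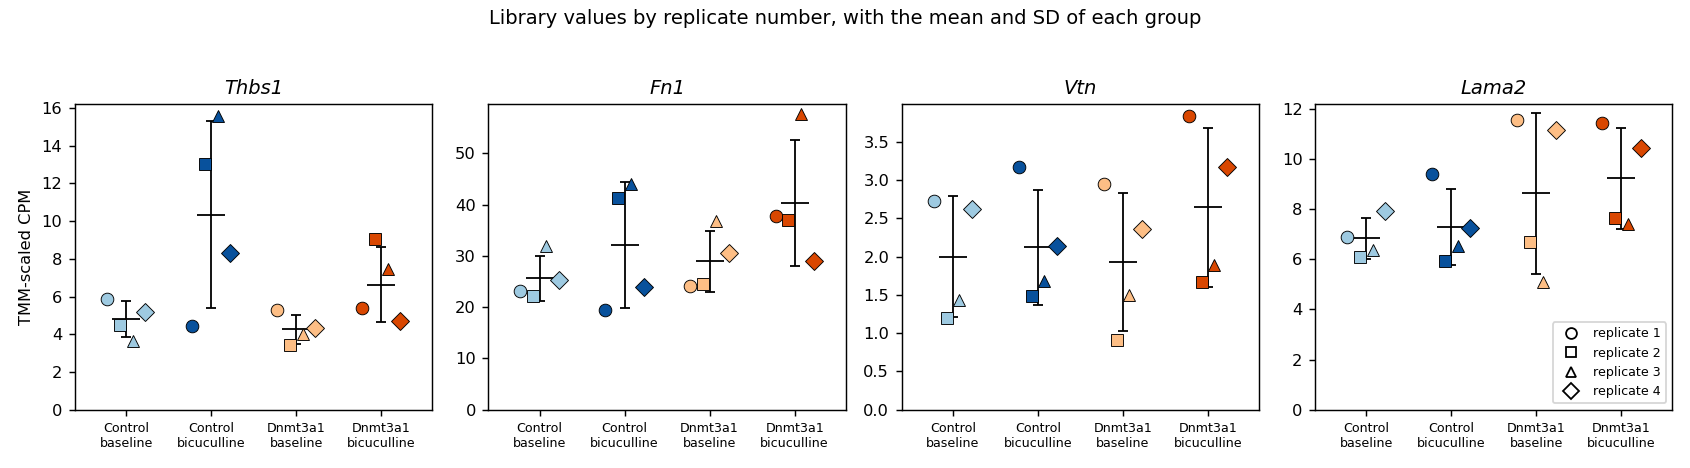
TMM-scaled CPM of Thbs1, Fn1, Vtn and Lama2 in each group, with a marker shape for each replicate number, a bar at the mean and whiskers of 1 SD (n = 4). For Vtn and Lama2 the 2 highest libraries of every group are replicates 1 and 4, while Thbs1 in Control-shRNA bicuculline spans 4.43 to 15.6 CPM.

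Markers of other cells in the cultures were measured beside these results. The fibroblast and mural list (8 genes) summed to 61.2 to 94.8 CPM in Control-shRNA baseline and 68.6 to 124 CPM with bicuculline, and 2 of its 8 genes, Col1a2 and Pdgfrb, were called higher. In Dnmt3a1-shRNA the sums were 72.9 to 118 CPM and 98.3 to 139 CPM, and 1 of 8 was called higher. Of the 8, 7 had log2 fold changes above 0 in Control-shRNA and 6 in Dnmt3a1-shRNA, with medians of 0.31 and 0.28. The astrocyte list summed to 701 to 903 CPM and 701 to 950 CPM in Control-shRNA, and 0 of its 8 genes were called with bicuculline by edgeR in either virus, also 0 at an unadjusted p under 0.05. Yet 7 of these 8 astrocyte genes had log2 fold changes above 0 in each virus. Their medians were 0.31 in Control-shRNA and 0.29 in Dnmt3a1-shRNA, where the 35 tested members had 0.29 and 0.40. The neuronal list summed to 7103 to 7904 CPM in Control-shRNA baseline and 8713 to 9289 CPM with bicuculline, with Nefl higher and Tubb3 lower in both viruses. The oligodendrocyte list summed to 97.3 to 186 CPM and 108 to 223 CPM there with 0 of 6 tested genes called by edgeR, also 0 at an unadjusted p under 0.05, and the endothelial list had Kdr lower (-1.08) in Control-shRNA and Flt1 higher (1.15) in Dnmt3a1-shRNA. The proliferation list, at 2.25 to 3.95 CPM over all libraries, had 1 called gene, Cenpf, lower in Dnmt3a1-shRNA (-0.63). The part of these cell types in the change of laminin, thrombospondin and integrin genes was not tested.

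The second question was which members depend on Dnmt3a1. In baseline 2 of the 35 tested members were called, Itgb3 and Itga4, both lower in Dnmt3a1-shRNA, where 4.07% of all tested genes were called lower and 1.76% higher. With bicuculline 2 members were called as well, Itgb3 lower and Thbs3 higher, where 3.90% of all tested genes were called lower and 2.0% higher. The median log2 fold change was 0.09 over the members and 0.01 over all genes in baseline, and 0.21 and -0.01 with bicuculline. The counts of 2 and 1 of 35 were close to that background for the lower members, and 1 member, Itgb3, was called in both conditions.

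Itgb3, the β chain of the αvβ3 vitronectin receptor (chr11:104608000-104670476, plus strand), measured 3.03, 3.67, 2.98 and 2.53 CPM in Control-shRNA baseline and 0.703, 0.589, 0.699 and 0.774 CPM in Dnmt3a1-shRNA baseline. With bicuculline it measured 2.20, 2.31, 2.99 and 2.98 CPM in Control-shRNA and 0.673, 0.9997, 0.713 and 0.886 CPM in Dnmt3a1-shRNA. Every Dnmt3a1-shRNA library was below every Control-shRNA library in both conditions. The knockdown cultures held 22.6% of the control mean in baseline (log2 fold change -2.14 ± 0.18, edgeR adjusted p = 3.97e-07) and 31.2% with bicuculline (-1.67 ± 0.18, edgeR adjusted p = 6.50e-06). The depth behind these values was 59 to 119 counts per Control-shRNA library and 17 to 27 counts per Dnmt3a1-shRNA library. Leaving out any 1 of the 16 libraries moved the log2 fold change within -2.22 to -2.04 in baseline and -1.79 to -1.60 with bicuculline, and it was called in every one of these fits and in all 10 other settings of each comparison.

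The partners of β3 were not called lower. Itgav had a log2 fold change of 0.23 ± 0.12 in baseline (edgeR adjusted p = 0.209) and of 0.41 ± 0.12 with bicuculline, where it passed the adjusted p alone (0.0215, edgeR) and the groups did not overlap. The other β chains of αv, Itgb5 and Itgb8, had log2 fold changes of 0.38 ± 0.18 and 0.23 ± 0.15 in baseline, neither called. Vtn, the ligand that names the receptor, had means of 1.998 ± 0.793 and 1.93 ± 0.903 CPM in baseline. Of 20 other integrin ligands, Fbln5, a fibulin of elastic fibres, was lower by a log2 fold change of -1.53 in baseline (edgeR adjusted p = 0.00669) and -1.46 with bicuculline (edgeR adjusted p = 0.00755).

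Itga4 was lower in Dnmt3a1-shRNA before stimulation, with the libraries given above at 8.18 to 10.47 CPM in Control-shRNA and 5.76 to 6.48 CPM in Dnmt3a1-shRNA. The knockdown held 67.0% of the control mean without overlap of the groups (log2 fold change -0.58 ± 0.12, edgeR adjusted p = 0.00267). With bicuculline the libraries overlapped, at 2.35 to 3.23 and 1.81 to 2.73 CPM, and the log2 fold change of -0.30 ± 0.14 was not called (edgeR adjusted p = 0.147). On TPM with a pseudocount of 1 the baseline value was -0.44, below the fold threshold. Its opposite-strand neighbour Cerkl also had a lower value in baseline, at a log2 fold change of -1.16 (edgeR adjusted p = 0.0388).

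Thbs3, a thrombospondin of the pentameric subgroup (chr3:89215180-89226837), measured 10.53, 10.9, 10.4 and 10.3 CPM in Control-shRNA bicuculline and 15.1, 17.7, 12.05 and 16.4 CPM in Dnmt3a1-shRNA bicuculline. In baseline it measured 11.3, 10.7, 10.8 and 8.98 CPM in Control-shRNA and 16.7, 14.5, 9.81 and 16.5 CPM in Dnmt3a1-shRNA. The groups did not overlap with bicuculline, and in baseline they overlapped through Dnmt3a1-shRNA replicate 3. The log2 fold change was 0.54 ± 0.14 with bicuculline (edgeR adjusted p = 0.0150) and 0.46 ± 0.14 in baseline, where it passed the adjusted p alone (0.0347, edgeR). The first call was lost without Dnmt3a1-shRNA bicuculline replicate 2 or 4 (0.46 and 0.50), with library sizes only (0.47) and on TPM (0.36 with a pseudocount of 1, limma adjusted p = 0.111), and the baseline value was called without Dnmt3a1-shRNA baseline replicate 3, at 0.61. Thbs3 shares 6.59% of its exon bases with Mtx1 on the opposite strand, which had a mean of 27.7 CPM and a log2 fold change of -0.13 with bicuculline (edgeR adjusted p = 0.296).

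Several α chains passed the adjusted p without reaching the fold threshold. Itga6 was higher in Dnmt3a1-shRNA at means of 24.3 ± 3.55 against 17.2 ± 1.99 CPM in baseline and 21.2 ± 2.97 against 15.3 ± 1.497 CPM with bicuculline, with no overlap in either condition. Its log2 fold change of 0.50 ± 0.12 in baseline (edgeR adjusted p = 0.00741) lay just under the threshold, and it was called by DESeq2 and with DESeq2's size factors in edgeR, at 0.50 each, and without Control-shRNA baseline replicate 2 or 3 or Dnmt3a1-shRNA baseline replicate 1 or 2, at 0.53 to 0.56. With bicuculline the value was 0.47 ± 0.12 (edgeR adjusted p = 0.0115), and it was called without Control-shRNA bicuculline replicate 2 or Dnmt3a1-shRNA bicuculline replicate 1 or 4, at 0.52 each. Itga8, a receptor chain for nephronectin, and Itga3 had 0.36 ± 0.09 and -0.30 ± 0.08 with bicuculline (edgeR adjusted p = 0.0109 and 0.0192).

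Nedd9 was higher in Dnmt3a1-shRNA than in Control-shRNA with bicuculline, at 140% of the control mean, though the libraries given above overlapped. Its log2 fold change of 0.49 ± 0.13 passed the adjusted p alone (0.0152, edgeR) and was called by DESeq2 (0.50) and without Control-shRNA bicuculline replicate 1 or 4 or Dnmt3a1-shRNA bicuculline replicate 2 or 3, at 0.51 to 0.59. Hpse was at 58.7% and 59.9% of the control mean in the 2 conditions with overlapping libraries, and the log2 fold changes of -0.75 ± 0.37 and -0.74 ± 0.31 were not called (edgeR adjusted p = 0.192 and 0.110). Without Dnmt3a1-shRNA baseline replicate 3 the first was called, at -1.25 (edgeR adjusted p = 0.0307). Thbs1 had a log2 fold change of -0.64 ± 0.29 with bicuculline that was not called (edgeR adjusted p = 0.142), and without Control-shRNA bicuculline replicate 1 it was called, at -0.89. No laminin chain was called in either knockdown comparison by edgeR, and at an unadjusted p under 0.05 there were 0 in baseline and 1 with bicuculline.

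The marker lists were also compared between the viruses, and their library sums overlapped between the viruses except for those of the microglial list. The fibroblast and mural list is given above, and 1 of its 8 genes was called higher in Dnmt3a1-shRNA in each condition, Pdgfrb in baseline and Lum with bicuculline. All 8 had log2 fold changes above 0 in each condition, with medians of 0.32 in baseline and 0.22 with bicuculline. The astrocyte list summed to 714 to 1043 CPM in Dnmt3a1-shRNA baseline and 849 to 1084 CPM with bicuculline, with 1 of 8 genes, S100b, called higher in each condition. Of these 8 astrocyte genes, 7 had log2 fold changes above 0 in each condition. Their medians were 0.40 in baseline and 0.42 with bicuculline, where the 35 tested members had 0.09 and 0.21. By edgeR, 4 astrocyte genes in baseline and 3 with bicuculline had an unadjusted p under 0.05. The microglial list summed to 4.20 to 5.40 CPM in Control-shRNA baseline and 2.79 to 4.15 CPM in Dnmt3a1-shRNA baseline, and to 4.44 to 5.75 CPM and 3.63 to 4.38 CPM with bicuculline, and 1 of its 4 tested genes, Csf1r, was called lower in each condition. Of the 6 tested endothelial genes, Tek was higher in each condition (1.12 and 1.65) and Kdr lower in baseline (-1.05), and 1 neuronal gene, Tubb3, was higher in baseline (0.51). In the oligodendrocyte and proliferation lists 0 genes were called by edgeR in either condition, with 0 and 1 oligodendrocyte genes and 1 and 1 proliferation genes at an unadjusted p under 0.05. Their part in the values of the integrins and thrombospondins was not tested.

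The third question was whether the response to bicuculline differs between the viruses. It was tested as the interaction over all genes, and 0 members and 0 genes in all were called at an edgeR adjusted p under 0.05 (0% of 17222), with 852 genes at an unadjusted p under 0.05. DESeq2 called 17 genes, none of them a member, and voom with limma called 0. With the replicate number as a block 3 genes were called, with 1564 at an unadjusted p under 0.05, and with no filter 3, and again none was a member. By edgeR's quasi-likelihood fit across all genes, Lamc1 was the 1 member with an unadjusted p under 0.05, with log2 fold changes of 0.68 in Control-shRNA and 0.97 in Dnmt3a1-shRNA and a difference of 0.29 ± 0.11 (edgeR adjusted p = 0.923). For Itgb3 the difference was 0.46 ± 0.26, for Itga9 0.39 ± 0.20, for Nedd9 0.32 ± 0.19, for Itga4 0.28 ± 0.18 and for Thbs1 -0.47 ± 0.42. The calls that stand in 1 virus alone, of Itga2, Itga3, Itgb1 and Thbs1, were therefore not shown to differ between the viruses.

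**Figure D5:**
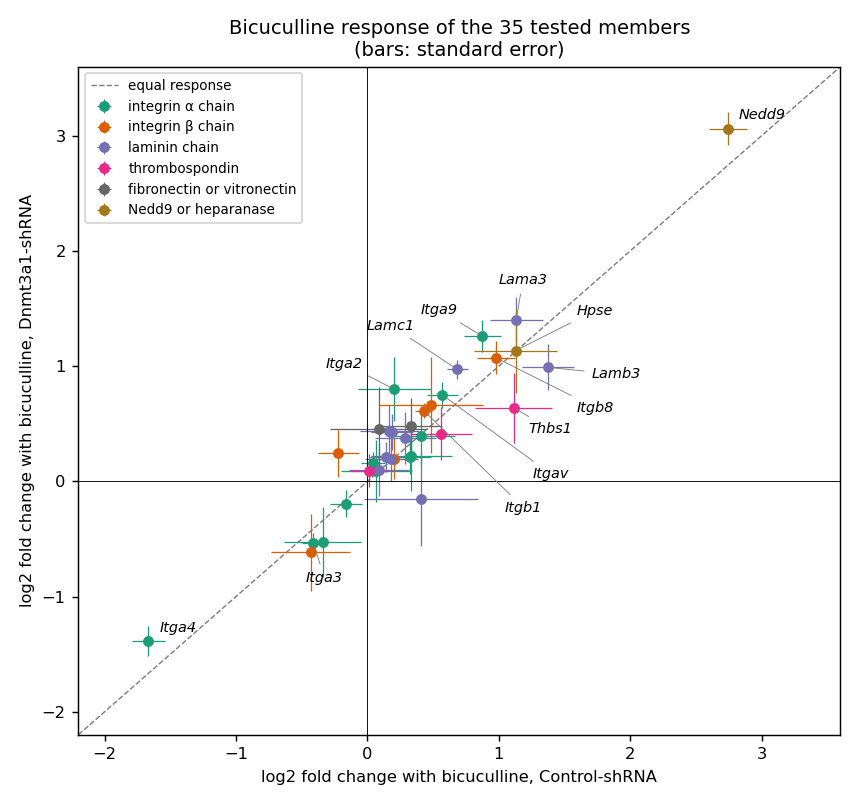
Log2 fold change with bicuculline in Control-shRNA (x axis) and Dnmt3a1-shRNA (y axis) for the 35 tested members, with bars of 1 standard error and a dashed line of equal response. Nedd9 (2.75 and 3.06) and Itga4 (-1.67 and -1.39) lie at the ends of the diagonal, and Thbs1 and Lamb3 lie below it.

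The wider adhesion machinery was followed in gene lists, whose counts are read against the share of all genes called (with bicuculline 10.8% higher and 11.1% lower in Control-shRNA, and 12.6% and 13.2% in Dnmt3a1-shRNA; with the knockdown 1.76% higher and 4.07% lower in baseline, and 2.0% and 3.90% with bicuculline). Of 31 tested genes of the integrin adhesome, the proteins that link integrins to actin and signalling, 7 were higher and 2 lower with bicuculline in Control-shRNA, and 8 and 2 in Dnmt3a1-shRNA. In Control-shRNA the largest changes were those of Vcl, the actin linker vinculin (1.33), Crkl, an adaptor that binds Nedd9 and its relatives (0.88), and Peak1, a pseudokinase of adhesion sites (0.84). Bcar1, the p130Cas relative of Nedd9, named after its values were seen, was lower, with log2 fold changes of -0.77 and -0.86 (edgeR adjusted p = 4.02e-08 and 8.40e-09). In Dnmt3a1-shRNA against Control-shRNA, 2 adhesome genes were lower in each condition, Vcl (-0.68 and -0.67) in both, Peak1 (-0.77) in baseline and Ptk2b (-0.52) with bicuculline, a count close to the share of all genes. Vcl, Peak1 and Ptk2b are on the study's own list from these libraries.

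Read against the same shares, of 20 other integrin ligands 5 were higher with bicuculline in Control-shRNA and 8 in Dnmt3a1-shRNA, and 0 were lower by edgeR, among them Ccn1 (4.36 and 4.04) and Tnc (2.91 and 3.59). Against Control-shRNA, 3 were lower in Dnmt3a1-shRNA in baseline and 3 lower and 2 higher with bicuculline. Of these, Fbln5 is given above, and Egfl7 had log2 fold changes of -0.64 and -0.79. Of 13 tested thrombospondin partners, 1 was higher with bicuculline in Control-shRNA and 2 in Dnmt3a1-shRNA, and 0 were lower by edgeR. Among them Adamts1, a protease that cleaves thrombospondins, rose in both viruses (2.39 and 2.52). With the knockdown 2 of 13 were higher in each condition, Cd36 (0.83 and 0.65) and Sparcl1 (0.53 and 0.51). Counts in the next lists were mostly near or below those shares. Of 19 heparan sulfate proteoglycan genes, 1 was higher with bicuculline in Control-shRNA, Ext1, which builds the heparan sulfate chain that heparanase cleaves (1.03, and 1.25 in Dnmt3a1-shRNA). In Dnmt3a1-shRNA 3 were higher and 1 lower, and the largest after Ext1 were Hpse2, an inactive relative of heparanase (-0.99), and Gpc6 (0.72). With the knockdown 1 of 19 was higher in each condition, Sdc3 (0.58) in baseline and Gpc3 (0.60) with bicuculline. Of 14 basement membrane and laminin receptor genes, 1 was lower with bicuculline in each virus, Megf9 (-0.54 and -0.53), and 0 were called with the knockdown by edgeR, with 3 and 2 at an unadjusted p under 0.05. Of 5 tested genes among 10 further integrin, laminin and thrombospondin family members, 1 was called in 1 comparison, Itgam with bicuculline in Dnmt3a1-shRNA (1.04).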

How the data were processed

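Total RNA (500 ng per library) from the 16 cultures was sequenced as 100 bp paired-end reads on the BGISEQ-500 platform, per the labels and the study's methods. The authors trimmed reads with Trim Galore 0.6.4, quantified transcripts with kallisto (version 0.4.6 in the submitters' processing notes) against GRCm38.p6 and deposited estimated counts per gene. The study's methods give the kallisto version differently from those notes. The authors also deposited TPM per gene, which divide by transcript length and depth. The library strand setting is not given in the sources used here. Estimated counts compare samples, and TPM compare genes.

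For the tests the estimated counts were rounded to integers, then scaled by TMM (factors 0.871 to 1.12), and genes were kept by edgeR's filterByExpr. A single model of 4 groups was fitted across 17222 genes by edgeR's quasi-likelihood test (edgeR 4.0.16, R 4.3.3), with Benjamini-Hochberg adjustment over all of them, for 5 comparisons: bicuculline within each virus, virus within each condition, and their interaction. Calls required an adjusted p under 0.05 together with a log2 fold change beyond 0.5 in either direction, the study's thresholds, and for the interaction the adjusted p alone. CPM values are TMM-scaled. Each standard error of an edgeR log2 fold change was derived from the test and not fitted directly. It is the absolute log2 fold change divided by the square root of the quasi-likelihood F statistic. The procedure was tested on simulated data. Gene names and positions come from GENCODE M21 (55144 of 55385 identifiers matched without version), and promoters from RefSeq.

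Members and gene lists were chosen with earlier results of these data known. Members called in any comparison are named with every library, the others by group means or range, and from each other list at most 3 called genes with the largest change in a comparison; any further name is marked as such. A gene of the ligand list is counted but not reported here by name. Replicates are described as independent preparations, and every pair of replicates differed beyond counting error (chi-square divided by its degrees of freedom 7.915 to 44.73). The labels number replicates 1 to 4 in each group and do not say what a number shares, and no batch or date is given. Deviations of same-numbered libraries correlated across genes at 0.142 to 0.221 for bicuculline in Control-shRNA and 0.204 to 0.355 for the knockdown in baseline, so the numbers were taken to pair these groups, from the data alone. They correlated at 0.0631 to 0.337 for bicuculline in Dnmt3a1-shRNA and 0.0667 to 0.388 for the knockdown with bicuculline, where not every pair exceeded 0.1. The main fit nevertheless had no term for the replicate number, so its standard errors and adjusted p values are unpaired. Alternatives were voom with limma 3.58.1, DESeq2 1.42.0, DESeq2's size factors, library sizes only, no filter, a minimum of 10 counts per library, limma tests of TPM after log2 with a pseudocount of 1 or 0.1, only the groups compared, a replicate block, other fold thresholds, and each of the 16 libraries left out.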

Additional observations from a re-analysis of the deposited data

Results flagged for a closer look

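Single libraries stood apart from the other 3 of their group for 8 of the 140 combinations of a tested member and a group, by a gap to the nearest library divided by the range of the group above Dixon's critical value for 4 samples. Chance alone gives about 1 in 20, or 7 of 140. Itgb8 was high in replicate 1 of both stimulated groups, at 48.3 CPM in Control-shRNA where the others had 35.8 to 37.6 CPM (ratio 0.860), and at 60.1 CPM in Dnmt3a1-shRNA where the others had 45.8 to 47.4 CPM (ratio 0.885). Its call held in each of the 16 fits without 1 library in both viruses. Lama4 was high in replicate 3 of both Control-shRNA groups, at 3.01 against 2.22 to 2.34 CPM in baseline (ratio 0.855) and 3.36 against 2.57 to 2.63 CPM with bicuculline (ratio 0.921). Lama3 was low in Control-shRNA bicuculline replicate 2, at 2.06 against 3.23 to 3.46 CPM (ratio 0.832). Lama5 was high in Dnmt3a1-shRNA bicuculline replicate 3, at 8.30 against 4.62 to 5.22 CPM (ratio 0.836), and Lamb1 in replicate 1 of the same group, at 47.2 against 33.6 to 35.8 CPM (ratio 0.834). Itga11 was high in Control-shRNA baseline replicate 3, at 1.19 against 0.625 to 0.713 CPM (ratio 0.843). What set these libraries apart was not tested.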

How the results depend on the processing

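Of 674 values of the 26 called pairs of a member and a comparison under the alternatives other than another fold threshold, 641 kept their direction and call, 33 kept the direction and lost the call, and 0 reversed. These include fits that left out a library of a group not compared. Such fits kept every library of the comparison and could change a call only through the shared filter, scaling and spread. The count of called members was 10 with bicuculline in Control-shRNA, 12 in Dnmt3a1-shRNA, and 2 for the knockdown in each condition. On log2(TPM + 1) the counts were 6 for bicuculline in Control-shRNA and 1 for each knockdown comparison, and on log2(TPM + 0.1) the knockdown with bicuculline gave 1, as it did with library sizes only. Over a log2 fold change of 1 the counts were 6 and 6 with bicuculline and 1 and 1 for the knockdown, and with no fold threshold the knockdown gave 4 in baseline and 7 with bicuculline. Leaving out 1 library gave 10 to 11, 10 to 13, 2 to 4 and 2 to 4 members, and 0 to 0 for the interaction. The highest knockdown counts came without Dnmt3a1-shRNA baseline replicate 3 (4 in baseline) and without Control-shRNA bicuculline replicate 1 (4 with bicuculline). With the replicate block 11, 13, 2, 2 and 0 members were called, the additions being Thbs2 in Control-shRNA and, in Dnmt3a1-shRNA, Itga7 (-0.52, edgeR adjusted p = 0.0422), and the block changed no other call. At any fold change, 15, 23, 6 and 11 members had an edgeR adjusted p under 0.05 with the block. Without it the counts were 12, 13, 4 and 7. Library sizes only moved the median of all genes to -0.15, -0.16, -0.07 and -0.08, and the split of higher and lower genes to 1365 and 3032, 1674 and 3433, 159 and 960, and 212 and 895, where the TMM fit gave 1854 and 1911, 2167 and 2269, 303 and 701, and 344 and 671. A fit of only the groups compared could not be made for the interaction, and Hpse could not be tested at 10 counts in every library. Depth limits Itgb2, Itgb4, Hpse, Lamc3 and Itga2 most, whose lowest libraries had 7, 5, 4, 10 and 13 counts.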

Other observations

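For several members the order of the libraries followed the replicate number in every group. Vtn measured 2.73, 1.20, 1.43 and 2.63 CPM in Control-shRNA baseline and 2.95, 0.916, 1.49 and 2.36 CPM in Dnmt3a1-shRNA baseline, and replicates 1 and 4 were the 2 highest in 4 of 4 groups. The same held for Lama2 and Nedd9, whereas replicates 1 and 4 were the 2 lowest in 4 of 4 groups for Itga5, Itga7, Itgb5 and Lamb2. This was noticed in the data, and the labels do not say what a number shares.

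The spread within groups differed between members. The median coefficient of variation over the 4 groups was lowest for Itgb1 at 5.32% and Lamc1 at 6.03%, and highest for Lamc3 at 43.8%, Itgb4 at 41.2% and Vtn at 39.5%.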
